A study of Mus musculus with 9 samples.

Results

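The expression of 10 iron handling genes is described across the choroid (CH), the retinal pigment epithelium (RPE) and the photoreceptors (PR) of the mouse eye. They are Trf, Tfrc, Fth1, Ftl1, Slc11a2, Slc40a1, Heph, Cp, Hfe and Hamp, and they were found as the array probes that carry one of these symbols, control spots excluded. All 10 genes were on the array, of 31829 gene names in all, and they had 17 probes of 39429. Of the 10, 9 were well above the local background in the tissue channel on all 9 arrays at the probe that stands for the gene, and Hamp was not so on any array.

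The study compared gene expression in mouse and human RPE. In its mouse part it asked which genes the RPE expresses above its neighboring layers. Each tissue was laser dissected from frozen eye sections of female C57BL/6 mice, 6 months old to within 2 weeks according to the labels (the methods give a slightly younger age and the substrain C57BL/6JOlaHsd, without the rd8 mutation of Crb1), with 3 arrays each for CH, RPE and PR and no treatment or other genotype. Amplified RNA of the tissue was labelled with Cy5 and hybridized together with a Cy3-labelled common reference made from mouse RPE and choroid, on 1 array per sample, without dye swap. The value given for a probe is log2 Cy5/Cy3, tissue over reference, after loess normalization within the array. A value of 0 thus means the ratio usual on that array for probes of like brightness, and not equal raw signal in both channels.

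Iron travels in plasma bound to transferrin, and cells take it up through the transferrin receptor, move it out of the endosome through a divalent metal transporter and store what they do not use in ferritin. It leaves a cell through ferroportin, and a ferroxidase (hephaestin in the membrane, or ceruloplasmin) oxidizes it so that transferrin can bind it again. The hormone hepcidin removes ferroportin from the cell surface. In the outer retina the photoreceptors have no vessels of their own, and the RPE lies between them and the choroidal capillaries, so iron for the photoreceptors is thought to cross the RPE.

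The probes decide what was measured, and for Tfrc, Heph and Slc11a2 the probes of one gene did not give the same picture, so a 30-base stretch of each of these is shown beside the Cp probes, which kept 1 order, read 5′ to 3′ as in the array design. Capitals mark the hexamer AATAAA, the signal that precedes the poly(A) tail, which was searched in both orientations. It stood as written in 5 of the 17 iron gene probes (Trf, Ftl1, Slc11a2, Slc40a1 and Hfe, 1 each) and in 12.6% of all 39429 probes, and its reverse complement TTTATT in 1 and in 4.03%. All positions are on mm9, the build of the array design. Neither exon nor untranslated region was assigned to a probe, because no annotation of that build was used here. The methods state that labelling started from the 3′ end, and that the range of RNA integrity numbers differed between the tissues. What this does to probes that lie further upstream was not tested.
Tfrc, A_52_P228236, chr16:32632255-32632314: tgagcaagatcacattaacaaagactagtt
Tfrc, A_65_P06446, chr16:32620470-32620529: tcctgctagatggaacatagattcttcatg
Tfrc, A_51_P167876, chr16:32624877-32625093: atctctatatagagacagcaattggattag
Heph, A_55_P1994194, chrX:93769721-93769780: gtccttcaagtttttacacagaagagaatt
Heph, A_55_P1994190, chrX:93725815-93725874: ttagtcttctggtttattcctttcaacata
Heph, A_52_P498219, chrX:93726574-93726633: gtgttttgtaaagacaatgtcatgtaagta
Cp, A_55_P2111302, chr3:19889071-19889130: tctgatgtctttgaccttttccctggaaca
Cp, A_55_P2087607, chr3:19907511-19907570: gcttgcagtgtctatatgtactagagataa
Slc11a2, A_51_P388737, chr15:100218333-100218392: catccttgttatAATAAAgttcatgcttaa
Slc11a2, A_52_P254298, chr15:100240516-100240575: gagactctgaggagcccttcaccacctact
The Tfrc, Heph and Cp genes lie on the plus strand and Slc11a2 on the minus strand. The probe that stands for each gene is the first in this list, the brightest in Cy5 with no saturated spot. The hexamer is in the brighter Slc11a2 probe and not in the dimmer one. The 60 bases of the Tfrc probe A_51_P167876 span 217 bases of the genome, so they do not lie in one unbroken stretch of it.

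Between 62.05% and 71.24% of the probes were well above background in Cy5 on 8 arrays, and 91.68% on RPE replicate 2, which stands apart. Markers of rods and of the RPE were read as a check of the labels. The rod genes Gnat1, Pde6b, Sag, Nrl and Prph2 were all higher in PR than in both other tissues. Of the RPE markers, Rpe65, Rgr, Lrat, Rdh5 and Ttr were higher in RPE than in PR, while Best1 was well above background on at most 1 array of a tissue. The summed Cy5 signal of the RPE markers was 1632000 to 1734000 in RPE, 1149000 to 1464000 in CH and 206700 to 275100 in PR. Ttr was saturated on all CH and RPE arrays and Lrat on 1 RPE array. Rpe65 was saturated on 3 RPE arrays and 1 CH array, and Rdh5 on 3 RPE arrays and 2 CH arrays. The sums of RPE and CH are thus capped, and RPE marker signal was high in the CH samples too. In log2 ratio, saturated spots as read, 4 of the 6 were higher in RPE than in CH by the limits given below. Of all genes, 0.182% were. The 5 fibroblast markers were all higher in CH than in RPE, and 2 of the 6 macrophage markers (Mrc1 and Emr1) were as well. In such samples, fewer cells of a type and less RNA per cell cannot be told apart.

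A gene was called different where limma gave a fold change above 2.5 and a Benjamini-Hochberg adjusted p below 0.01 over all probes. Against PR, 5 of the 10 iron genes were called higher in RPE (Trf, Fth1, Ftl1, Slc40a1 and Heph), where 10.8% of all genes were called in that direction. Trf, Fth1 and Ftl1 were saturated in Cy5 on all RPE and CH arrays, and the 5 became 3 in Cy5 without the reference (Trf, Slc40a1 and Heph) and 2 with saturated spots left out (Slc40a1 and Heph). None was called lower in RPE than in PR by limma, against 5.22% of all genes; of the genes above background, 1 (Tfrc) was lower at an unadjusted p below 0.05, where 28.1% of all genes were. In CH, 6 were called higher than in PR (the same genes and Cp), against 12.7% of all genes, and this became 3 with saturated spots left out (Slc40a1, Heph and Cp). Tfrc was the 1 gene called lower in CH, against 6.08%. Between RPE and CH, 1 was called higher in CH (Slc40a1), against 1.74% of all genes, and 1 higher in RPE (Trf), against 0.182%. The Trf call rests on spots saturated in both tissues, and it was lost in Cy5 without the reference, with saturated spots left out, with median centring and when any of 5 of the 6 RPE and CH arrays was left out. The median fitted log2 difference of the 10 genes, saturated spots as read, was 1.41 for RPE over PR, 2.15 for CH over PR and -0.38 for RPE over CH, where the medians over all genes were -0.01, -0.05 and 0.03. The orders of tissue means that follow are for members without saturated spots and with no overlap between tissues, at the probe that stands for each. Slc11a2, Slc40a1 and Hfe ran in the order CH, RPE, PR, as did the means of 21.3% of all genes. Heph ran in the order RPE, CH, PR (17.7% of all genes) and Tfrc from PR through RPE to CH (27.2%). These shares also count genes with overlap or saturated spots. Lack of overlap was common among genes with values on all arrays compared. It held for 39% between RPE and CH, 58.7% between RPE and PR and 62.4% between CH and PR.

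**Figure D1:**
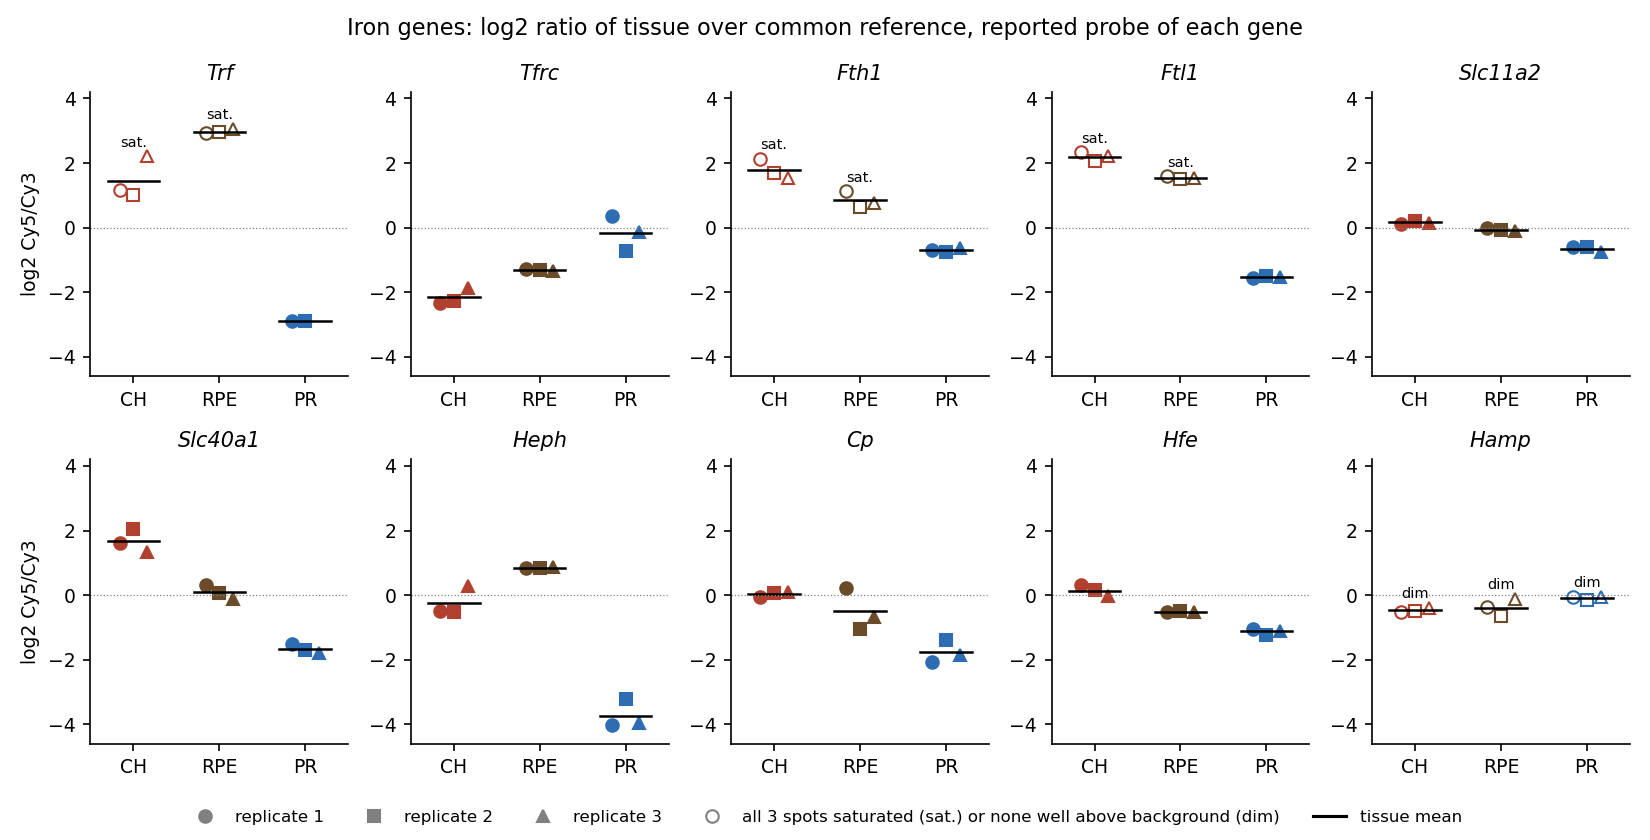
Log2 Cy5/Cy3 (vertical axis) of the 10 iron genes at the probe that stands for each gene, by tissue; each symbol is 1 array, its shape the replicate number, and the bar is the tissue mean. Open symbols are tissues in which all 3 Cy5 spots were saturated or none was well above background; Tfrc is the gene with PR at the top among those above background, and Heph has the lowest PR values, from -4.02 to -3.23.

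**Figure D2:**
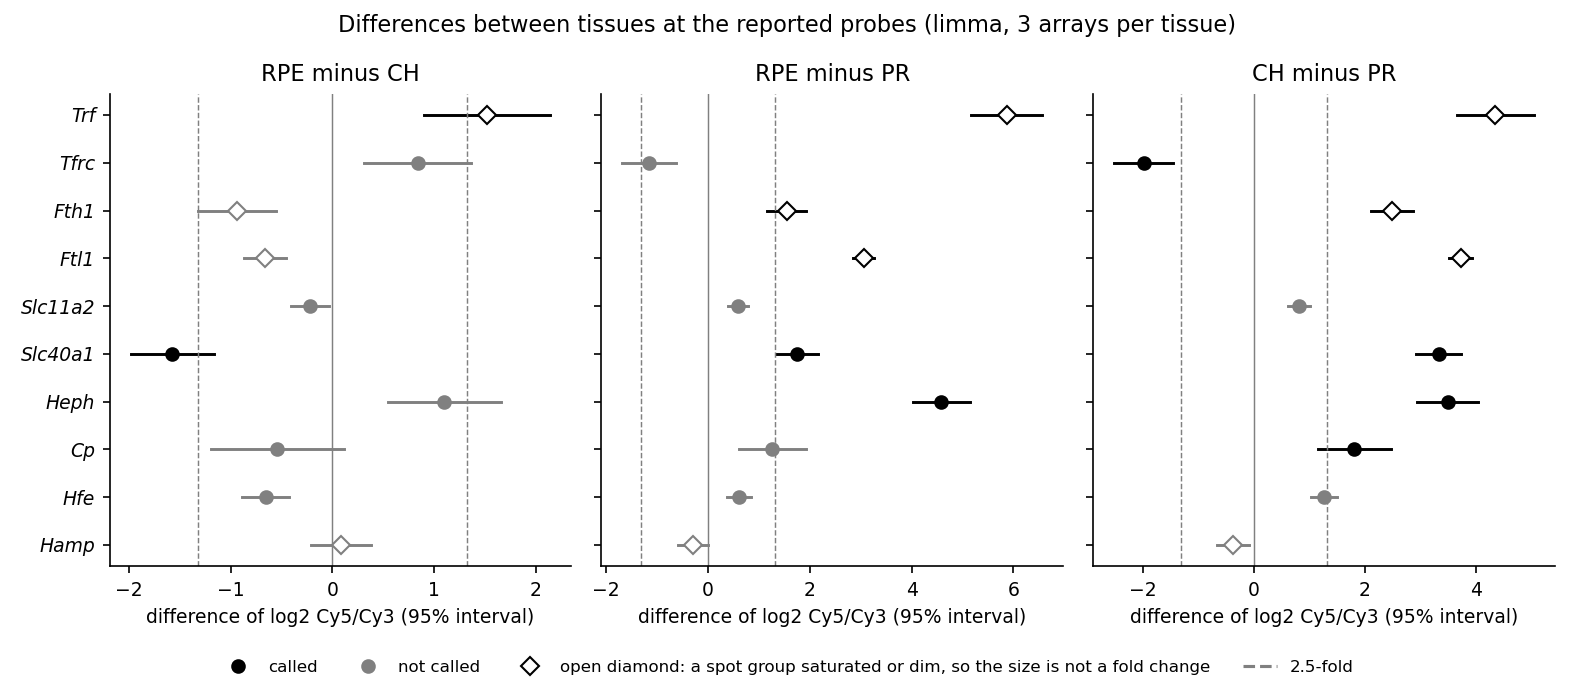
Difference of log2 Cy5/Cy3 (horizontal axis) between tissues for each gene, with the 95% interval of the limma fit and 3 arrays per tissue; the horizontal scale differs between the panels. Black marks are called, gray marks are not, and open diamonds are genes with saturated or dim spots, whose size is not a fold change; in RPE minus CH only Trf and Slc40a1 are black, on opposite sides of 0.

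Trf encodes transferrin, the iron carrier, which is also made in the eye. Its probe A_55_P2037584 (chr9:103111207-103111266) read 2.92, 2.95 and 3.05 in RPE, 1.15, 1.00 and 2.21 in CH, and -2.89 and -2.89 in PR replicates 1 and 2. The spot of PR replicate 3 was marked as an outlier by the scanner software and was left out. The log2 ratios of the 3 tissues did not overlap, with the lowest values in PR and CH replicate 3 apart from the other CH arrays.

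The Trf spots were saturated in Cy5 on all CH and RPE arrays, with raw signals of 592200 to 641300 in CH and 590900 to 644700 in RPE, so the tissue channel held no order between them. On PR the raw Cy5 signal was 126400 and 96720 in replicates 1 and 2. Measured in Cy5 after normalization, Trf was at least 4.49-fold higher in RPE and at least 4.14-fold higher in CH than in PR. The fitted log2 differences were 5.87 ± 0.30 (SE, adjusted p = 5.42e-07) and 4.35 ± 0.30 (SE, adjusted p = 2.83e-06). The second Trf probe, A_55_P2037585 (chr9:103112826-103112885), had all 9 arrays and gave at least 4.21-fold for RPE and at least 4.04-fold for CH.

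The call of Trf as higher in RPE than in CH (log2 difference 1.52 ± 0.27, SE, adjusted p = 0.00494) rested on the reference channel. The raw Cy3 signal of this probe was 79170, 76190 and 35340 on the CH arrays, 28610, 26460 and 24840 on the RPE arrays, and 453100, 437000 and 325900 on the PR arrays, although all received the same reference. From the Cy5 signal without the reference the difference was 0.12 (adjusted p = 0.70), so no fold is given for RPE over CH. Leaving out CH replicate 1 gave 1.37 (adjusted p = 0.0196) and leaving out RPE replicate 2 gave 1.53 (adjusted p = 0.0192), neither of which passed. The call also failed without CH replicate 2 (1.29) and without RPE replicates 1 (1.55) and 3 (1.48). Within slide 1 the difference was 1.31, and within slide 2 it was 1.95. CH replicate 3, with the highest Trf value of CH, also had the highest sum of RPE markers in CH, 1464000 against 1231000 and 1149000 in replicates 1 and 2; the part of RPE transcripts in the CH values was not tested.

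Tfrc encodes the transferrin receptor, through which cells take up iron-loaded transferrin. The probe A_52_P228236, which is printed 10 times on each array, read -2.32, -2.26 and -1.88 in CH, -1.29, -1.32 and -1.35 in RPE, and 0.37, -0.72 and -0.14 in PR. Every PR array was above every RPE array, and every RPE array above every CH array. It was 3.98-fold higher in PR than in CH (CH minus PR -1.99 ± 0.24, SE, adjusted p = 4.85e-05).

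The Tfrc difference between RPE and PR was -1.15 ± 0.24 (SE, adjusted p = 0.00223), which is 2.23-fold and short of the 2.5-fold limit. The 3 PR arrays were spread widely, and without PR replicate 2 the difference was -1.43 and was called (adjusted p = 0.000148). PR replicate 2 is the PR array that shares slide 2 with a CH and an RPE array, and within that slide RPE minus PR was -0.60 and CH minus PR -1.54. With the slide as a block RPE minus PR was -0.65 and CH minus PR -1.49, the latter still called. RPE was 0.84 ± 0.24 above CH (SE, adjusted p = 0.0295), which did not pass. The Cy3 signal of the probe hardly moved, from 11020 to 12450 over the 9 arrays. The red blood cell genes Hbb-b1, Hba-a1, Slc4a1 and Ahsp were not called in any comparison.

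The other Tfrc probes gave less. The dim probe A_65_P06446 read 0.20, 0.75 and 0.06 in CH, 0.72, 0.14 and -0.01 in RPE, and 0.46, 0.89 and 1.03 in PR. PR overlapped with the other tissues there, and no comparison passed (adjusted p = 0.111 for RPE against PR and 0.146 for CH against PR). The probe A_51_P167876 had the order of the brightest probe without overlap, with means of 0.52 in PR, -0.29 in RPE and -0.60 in CH. It was not well above background in Cy5 or Cy3 on any array, so no fold is given. Among spots well above background, the gradient from PR to CH rests on 1 of the 3 Tfrc probes.

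Fth1 and Ftl1 encode the heavy and light chains of ferritin, the cage that stores iron, and the heavy chain carries the ferroxidase activity. Fth1 (chr19:10059485-10059544, plus strand) read 2.14, 1.68 and 1.53 in CH, 1.13, 0.63 and 0.78 in RPE, and -0.70, -0.77 and -0.65 in PR. Ftl1 (chr7:52713309-52713368, minus strand) read 2.33, 2.07 and 2.21 in CH, 1.59, 1.49 and 1.54 in RPE, and -1.55, -1.49 and -1.52 in PR. For both chains the log2 ratios of the 3 tissues did not overlap and PR was lowest, but those of CH and RPE rest on saturated spots.

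Both ferritin probes were saturated in Cy5 on all CH and RPE arrays. For Ftl1, raw Cy5 signals on PR were 239400, 193200 and 377000, and Ftl1 was at least 2.20-fold higher in RPE and at least 2.11-fold higher in CH than in PR. Its fitted log2 differences from PR were 3.06 ± 0.09 for RPE (SE, adjusted p = 1.07e-08) and 3.72 ± 0.09 for CH (SE, adjusted p = 2.89e-09). Fth1 was also saturated on 1 PR array, so no fold is given. Its differences in log2 ratio from PR, 1.55 ± 0.17 for RPE (SE, adjusted p = 3.67e-05) and 2.48 ± 0.17 for CH (SE, adjusted p = 1.02e-06), became 0.36 (adjusted p = 0.0875) and 0.33 (adjusted p = 0.115) in Cy5 without the reference.

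As for Trf, the reference channel moved with the tissue at the ferritin spots. The raw Cy3 signal of Fth1 was 43050 to 53980 on CH arrays, 90160 to 117700 on RPE arrays and 239400 to 351200 on PR arrays. For Ftl1 it was 34090 to 39350, 63390 to 67770 and 267200 to 336600. The highest over the lowest Cy3 signal among the 9 arrays was 18.2 for Trf, 8.16 for Fth1 and 9.88 for Ftl1, against a median of 1.49 over the 25898 probes well above background in Cy3 on all arrays. At the probes that stand for the other 7 genes the same ratio lay between 1.13 (Tfrc) and 1.79 (Heph). The differences of RPE from CH, -0.94 for Fth1 and -0.66 for Ftl1, were under the 2.5-fold limit and were 0.04 and 0.06 in Cy5 without the reference, so neither chain is ordered between RPE and CH here. Ferritin genes have many near-identical copies in the genome, and the Ftl1 probe cannot be taken to read Ftl1 alone.

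**Figure D3:**
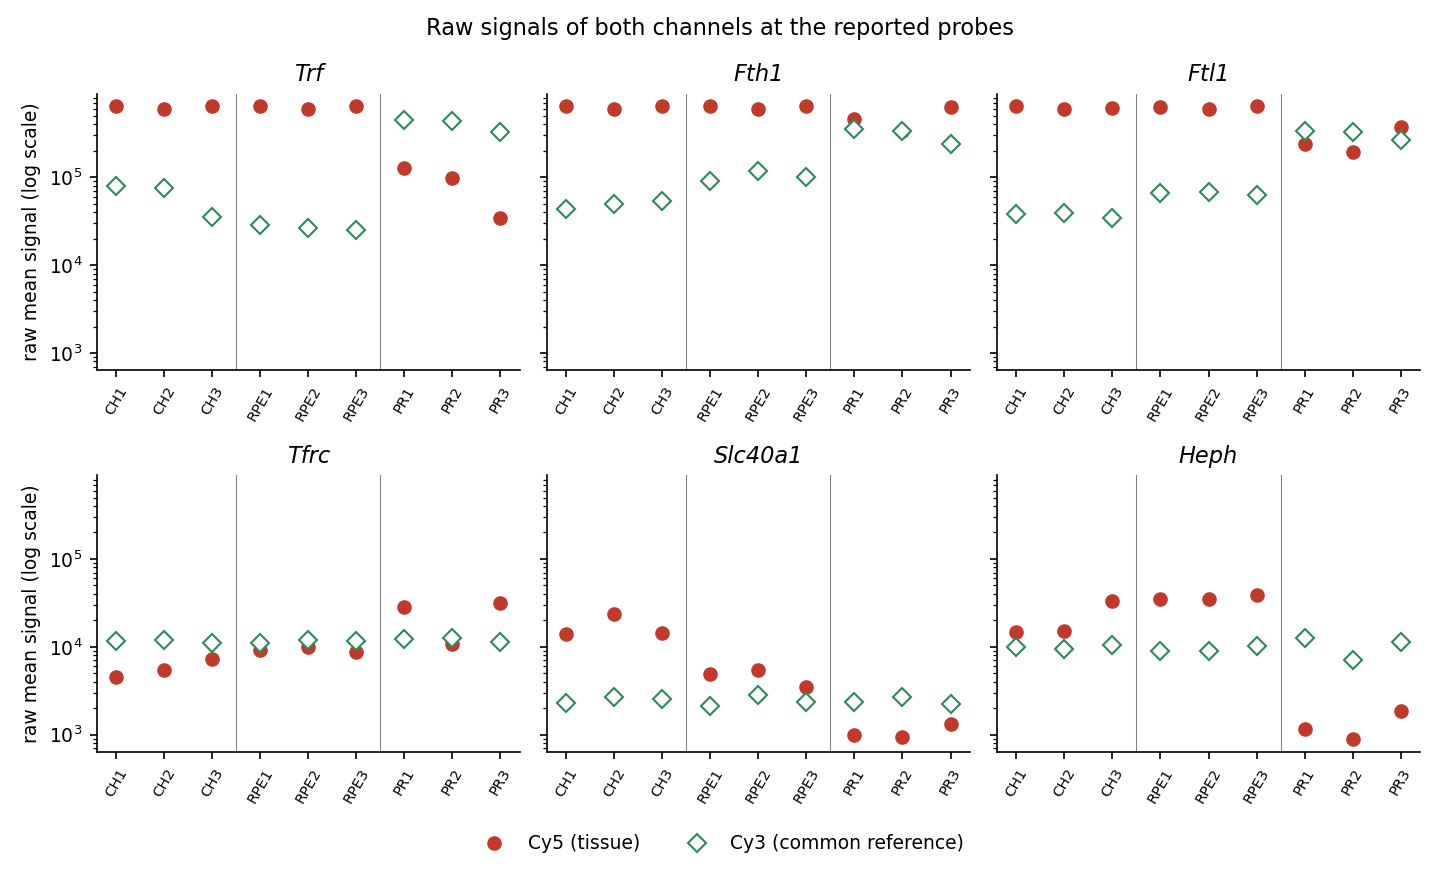
Raw mean signal (vertical axis, log scale) of the tissue channel (Cy5, filled) and the common reference channel (Cy3, open) on each of the 9 arrays, for 6 iron genes at the probe that stands for each. In the upper row (Trf, Fth1 and Ftl1) Cy5 sits at the saturation limit on CH and RPE arrays and Cy3 differs between tissues by up to 18.2-fold; in the lower row Cy3 is nearly level and Cy5 carries the difference. The Trf spot of PR replicate 3 is drawn but was left out of the fit.

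Slc11a2 encodes DMT1, the transporter that brings ferrous iron from the endosome into the cytosol. Its brighter probe read 0.12, 0.20 and 0.16 in CH, -0.01, -0.07 and -0.10 in RPE, and -0.59, -0.60 and -0.75 in PR. The tissues were separate but close. RPE was 1.50-fold (adjusted p = 0.000246) and CH 1.75-fold (adjusted p = 2.21e-05) above PR, both under the 2.5-fold limit, and the RPE to CH difference was -0.22 with a 95% interval from -0.41 to -0.03 (adjusted p = 0.0979). The dimmer probe, 22183 bases away, put CH lowest and not highest, with a CH minus PR difference of -0.25 (adjusted p = 0.0622), so the probes disagreed in sign.

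Slc40a1 encodes ferroportin, the iron exporter. Its single probe A_51_P389988 (chr1:45965255-45965314, minus strand) read 1.63, 2.04 and 1.32 in CH, 0.31, 0.07 and -0.12 in RPE, and -1.52, -1.69 and -1.79 in PR. The tissues did not overlap, no spot was saturated and all arrays were well above background. The stretch of this probe around its hexamer is given because the exporter is the one member called in all 3 comparisons on unsaturated spots.
Slc40a1, A_51_P389988: cctttcaatatccctgagaagAATAAAgaa

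Slc40a1 was 10.1-fold higher in CH than in PR (log2 difference 3.33 ± 0.18, SE, adjusted p = 2.02e-07) and 3.37-fold higher in RPE than in PR (1.75 ± 0.18, SE, adjusted p = 2.33e-05). It was 2.99-fold higher in CH than in RPE (RPE minus CH -1.58 ± 0.18, SE, adjusted p = 0.000463). Leaving out 1 array at a time kept the RPE minus CH difference between -1.75 and -1.39, and it was -1.38 within slide 1 and -1.98 within slide 2. Macrophages, which recycle iron from red blood cells, are rich in ferroportin. The summed signal of the 6 macrophage markers was 130100 to 176300 in CH and 116900 to 141300 in RPE. It was 31760 and 22240 in PR replicates 2 and 3. The sum of PR replicate 1, 9624, lacks Lyz2, whose spot there was marked as an outlier. All 6 markers were well above background in every tissue. Csf1r was higher in RPE than in CH by 0.53 on the log2 scale, while the other 5 were lower in RPE (median of the 6 -0.99, lowest -1.99, 2 of them called); their part in the Slc40a1 values was not tested. Over the 9 arrays, the genes with the profile nearest to Slc40a1, among 17851 others well above background on all arrays, were Si (now named Pmel, a melanosome gene), Tyrobp and Glipr1, with root mean square differences of 0.08, 0.11 and 0.13 between the centered log2 values.

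Heph encodes hephaestin, a membrane-bound copper ferroxidase that works beside ferroportin. Its brightest probe read 0.83, 0.85 and 0.87 in RPE, -0.50, -0.51 and 0.27 in CH, and -4.02, -3.23 and -3.95 in PR. The RPE values lay close together and above every CH array, and PR was far below both. Heph was 24.0-fold higher in RPE than in PR (4.59 ± 0.25, SE, adjusted p = 2.55e-07) and 11.2-fold higher in CH than in PR (3.49 ± 0.25, SE, adjusted p = 1.25e-06), which makes it the member with the largest difference from PR on unsaturated spots.

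RPE was 2.14-fold above CH for Heph (1.10 ± 0.25, SE, adjusted p = 0.0112), which did not pass. CH replicate 3 stood above the other CH arrays, as for Trf, and without it the difference was 1.36 and was called (adjusted p = 0.00232). The difference was 0.96 within slide 1 and 1.37 within slide 2. Against PR it was 4.08 for RPE and 2.71 for CH within slide 2, where PR replicate 2 had the highest Heph value of the PR arrays. With the slide as a block the differences from PR were smaller, 3.95 for RPE and 2.85 for CH, and were still called. The 3 genes with the nearest profiles were Scube3, Mfsd7c (an older name of Flvcr2, a transporter gene of the wider iron list) and Frem1, with root mean square differences of 0.12 to 0.14.

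The other Heph probes lie 43147 (A_52_P498219) and 43906 bases upstream, and both are listed under another transcript in the array design than the brightest probe. At A_52_P498219 the values were 0.16, 0.35 and 0.95 in CH and 0.90, 0.55 and 1.10 in RPE, while no PR array was well above background. Heph was there at least 2.98-fold higher in RPE (adjusted p = 3.53e-06) and at least 2.62-fold higher in CH (adjusted p = 7.75e-06) than in PR, and RPE and CH overlapped. The dim probe A_55_P1994190 moved little, from -0.60 to -0.33 in CH, -0.17 to -0.01 in RPE and -0.65 to -0.44 in PR, and was not called in any comparison.

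Cp encodes ceruloplasmin, a copper ferroxidase. Its probe A_55_P2111302 read -0.05, 0.08 and 0.10 in CH, 0.23, -1.05 and -0.68 in RPE, and -2.07, -1.38 and -1.85 in PR. The CH arrays were close together, whereas RPE replicate 1 was as high as CH and the other RPE arrays were below it. Cp was 3.50-fold higher in CH than in PR (1.81 ± 0.29, SE, adjusted p = 0.000441), but with the slide as a block the difference was 1.16 (adjusted p = 0.0516) and was no longer called, and within slide 2 it was 1.45. RPE minus CH was -0.54, with a 95% interval from -1.20 to 0.11 (adjusted p = 0.231), so the data allow no order of RPE and CH.

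RPE was 2.40-fold above PR for Cp (1.26 ± 0.29, SE, adjusted p = 0.00473), just under the limit. The difference was called without RPE replicate 2 (1.54, adjusted p = 0.00187), without RPE replicate 3 (1.35) and without PR replicate 2 (1.46), and within slide 2 alone it was 0.32. The second probe lies 18440 bases downstream and is listed under another transcript in the array design. It gave the same order with a like spread in RPE (0.04, -1.02 and -0.62). It was called in CH over PR (1.55 ± 0.22, SE, adjusted p = 0.000198) and not in RPE over PR (0.89, adjusted p = 0.00748). With the slide as a block its CH over PR difference was 1.17 (adjusted p = 0.0205) and was no longer called either. The nearest profiles were those of Fhdc1, P2ry1 and Gna14, at 0.22 to 0.26. For Tfrc they were those of Ooep, Ttc30a2 and Fyco1, at 0.18 to 0.21.

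**Figure D4:**
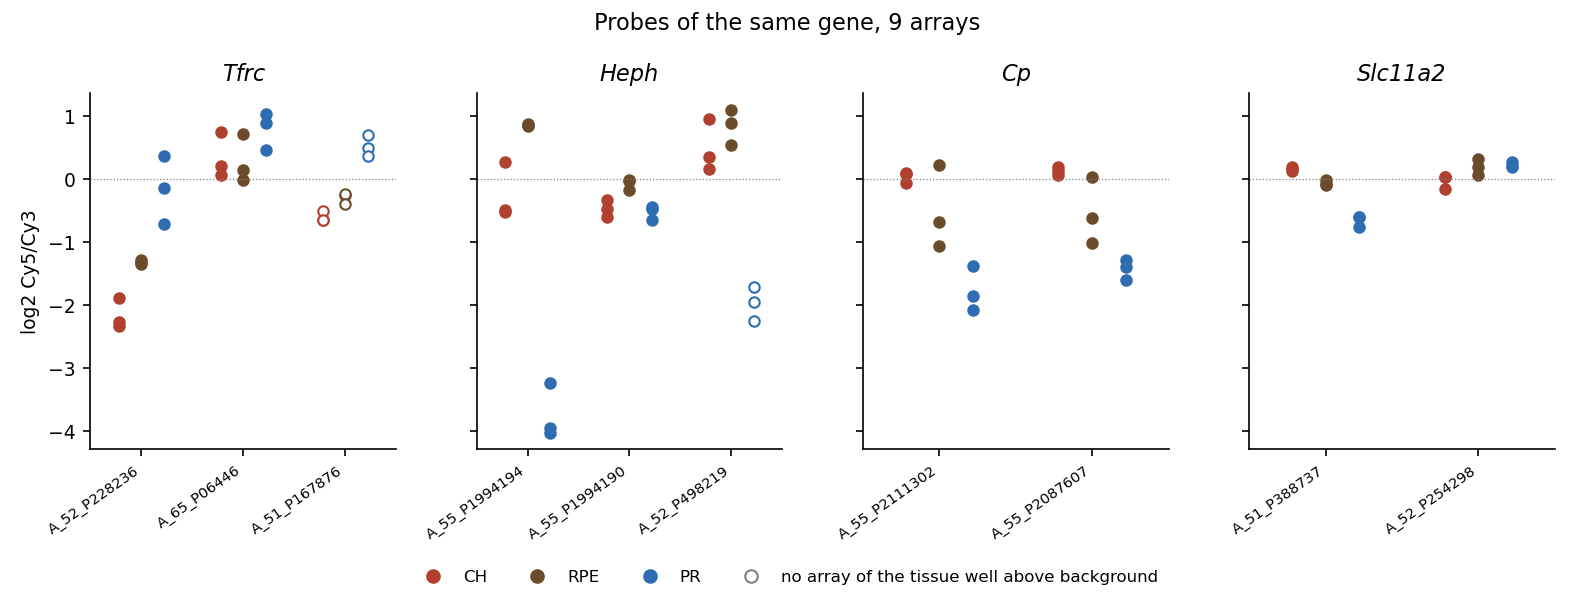
Log2 Cy5/Cy3 (vertical axis) on the 9 arrays for every probe of Tfrc, Heph, Cp and Slc11a2, the brightest probe first in each panel; each point is 1 array, colored by tissue, and open points are tissues in which no array was well above background. The Cp probes keep 1 order, the Tfrc and Heph probes differ in how far PR stands apart, and the Slc11a2 probes place CH at opposite ends.

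Hfe, the gene of hereditary hemochromatosis, encodes a partner of the transferrin receptors that takes part in iron sensing. Its probe (chr13:23795710-23795769, minus strand) read 0.30, 0.15 and -0.02 in CH, -0.53, -0.50 and -0.51 in RPE, and -1.04, -1.23 and -1.10 in PR. The tissues were separate and evenly spaced, but no difference reached 2.5-fold. CH was 2.40-fold above PR (adjusted p = 3.49e-06) and 1.58-fold above RPE (adjusted p = 0.00201), and RPE was 1.52-fold above PR (adjusted p = 0.000719). With the slide as a block the CH to PR difference was 1.38 in place of 1.26 and was called, as it was without CH replicate 3 (1.35).

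Hamp encodes hepcidin, the hormone that brings ferroportin down. At its probe (chr7:31727490-31727549, minus strand) no array was well above background in Cy5, with raw signals between 182.2 and 407.0. The Cy3 signal of the reference was well above background on 5 of 9 arrays. No fold is given, and a level below what this probe can read is not the absence of hepcidin.

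The wider iron list held 63 further genes, all on the array, 3 of them under older names. In RPE against PR 19 were called higher in RPE and 5 higher in PR, against 10.8% and 5.22% of all genes, and in CH against PR 20 were called higher in CH and 4 higher in PR, against 12.7% and 6.08%. In RPE against CH 0 of the 63 were called by limma in either direction, while 20 were higher in RPE and 13 higher in CH at an unadjusted p below 0.05, against 16.8% and 16.7% of all genes. Their median log2 differences were 0.34, 0.25 and 0.06, beside the medians over all genes given above. By role, beside the same shares over all genes, 5 of the 16 further uptake genes were called higher and 1 lower in RPE than in PR, and 6 of 14 regulation genes higher and 1 lower. Of the 8 genes of heme breakdown and transport 3 were called higher and none lower, while of the 10 genes of heme synthesis 3 were higher and 2 lower. Of the 9 genes of mitochondrial iron and iron-sulfur clusters 1 was called higher, and of the 5 storage and chaperone genes 1 was higher and 1 lower.

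The wider genes with the largest called differences are named by direction. Bmp2, a ligand of the BMP pathway that controls hepcidin, was 31.6-fold higher in RPE than in PR (4.98 ± 0.22, SE, adjusted p = 8.16e-08), and Id1, a target of BMP signaling, was 23.5-fold higher (4.55 ± 0.14, SE, adjusted p = 1.18e-08). In CH, Id1 was 38.3-fold higher than in PR (5.26 ± 0.14, SE, adjusted p = 3.72e-09). B2m, the partner chain of HFE, was called higher in CH than in PR (4.78 ± 0.16, SE, adjusted p = 9.05e-09), but its spot was saturated in Cy5 on 1 CH array, so no fold is given. Toward PR, the heme synthesis genes Cpox and Abcb6 were 3.56-fold (adjusted p = 7.19e-06) and 3.15-fold (adjusted p = 1.37e-06) higher than in RPE. Against CH, Fbxl5, which senses iron and degrades iron regulatory protein, was 4.72-fold (adjusted p = 1.37e-07) and Pcbp2, an iron chaperone, 3.32-fold (adjusted p = 2.36e-05) higher in PR.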

How the data were processed

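The authors deposited Agilent Feature Extraction 9.5.3.1 output of 9 dual-colour arrays, whose mean signals and local backgrounds are intensity values as scanned. The deposited processed signals and their log10 ratio of Cy5 to Cy3 served only as alternatives, as did the authors' series table of log2 values, which followed log2 Cy5 with correlations of 0.9845 to 0.9991 per array (column medians 9.378 to 9.549). The methods describe the authors' limma model (R 2.14.0, each tissue against the reference, then the tissues against each other, with moderated errors); the background correction and normalization before it and behind that table are not given in the sources used here.

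Here, signals were background corrected by normexp (offset 50), log2 ratios were loess normalized within arrays, outlier-marked spots (228 to 586 per array) were left out, and repeated spots averaged. All 9 arrays entered 1 fit with limma 3.58.1 (R 4.3.3), with Benjamini-Hochberg adjustment over 39429 probes. The limits for a call, 2.5-fold and 0.01 for the adjusted p, are those of the study's methods. A gene was read at its brightest Cy5 probe without a saturated spot, or else at its brightest probe. Bounds ("at least") compare mean Cy5 after loess and Aquantile, with saturated spots at their value and dim spots raised to the lowest signal well above background on that array; there were no dye swaps, so dye bias in them was not tested. Each sample came from 1 eye, and precision is limited by having 3 arrays for each tissue.

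Named were all member probes, the 2 wider iron genes with the largest called difference per direction and comparison, and the 3 nearest profiles of Tfrc, Slc40a1, Heph and Cp. The members and lists were chosen with earlier results of these data known. Marker lists covered RPE, rods, endothelium, fibroblasts, macrophages, red blood cells and Müller glia; between RPE and CH 0 of 6 endothelial markers and 1 of 6 Müller glia markers (Dkk3, higher in CH) were called. Slide 1 held CH 1, CH 3, RPE 1 and RPE 3, slide 2 held CH 2, RPE 2 and PR 2, and slide 3 held PR 1 and PR 3. Slide 3 held no other tissue, so differences from PR cannot be fully told apart from differences between slides. Of 100 simulated probes changed by 2 on the log2 scale, 90 (RPE against CH), 93 (RPE against PR) and 95 (CH against PR) were called. Older gene names were matched through RefSeq (GRCm38.p6). Summaries and plots used Python 3.11.15 with pandas 2.3.3, numpy 2.4.6 and matplotlib 3.10.9.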

Additional observations from a re-analysis of the deposited data

How the results depend on the processing

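Each of 12 counts and 30 member differences was recomputed under the alternatives, including each array left out in turn. Of 312 recomputed counts 279 stayed within 1.5 times, and of 772 recomputed differences 5 changed sign, 16 lost and 16 gained a call. The 1 member called higher in RPE than in CH (Trf) fell to 0 with the log ratio of processed signals, median centring, Cy5 without the reference, the arrays of the comparison only, saturated spots left out, outlier marks ignored, the series table and slide 2 left out (the last chosen after seeing the data), and leaving out 1 array gave 0 to 2. Members called higher in RPE than in PR went from 5 to 3 in Cy5 without the reference, to 2 with saturated spots left out and to 2 in the series table. Those higher in CH than in PR went from 6 to 3 with saturated spots left out and to 3 in the series table. Higher in PR than in RPE, 0 members became 1 (Tfrc) with processed signals, median centring, scaled log ratios, the series table, a fold limit of 2 and without slide 2, and 0 to 1 with 1 array left out. Of the wider genes, RPE over CH went from 0 to 2 with scaled log ratios, to 2 at a fold limit of 2 and 0 to 1 with 1 array left out. CH over RPE went from 0 to 2 with median centring and to 2 at a fold limit of 2, and PR over RPE from 5 to 2 with scaled log ratios and to 3 with the slide as a block. The cause was not tested, except that leaving out saturated spots leaves no value to test for Trf and the ferritins in the saturated tissues. Their Cy5 is capped there. In Cy5 without the reference and in the series table, a smaller difference of these genes cannot be told from that cap. RPE minus CH reversed for Fth1 (0.04) and Ftl1 (0.06) in Cy5 without the reference, and for Hamp in the series table (-0.04), without RPE replicate 3 and within slide 2 (-0.16); with 1 array left out Hamp lay between -0.05 and 0.22.

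Replicate numbers were not taken to pair the samples. Deviations of same-numbered arrays from the tissue means had correlations from -0.078 to 0.286 over 9 pairs (median 0.063). For the other 18 pairs they were -0.312 to 0.246 (median -0.0725). The deviations of 3 arrays from their own mean depend on each other, so these correlations cannot decide whether same-numbered samples were paired. Of the 9 pairs 5 also share a slide, among them the 3 pairs of slide 2 (0.164, 0.286 and 0.232). With the replicate number as a block, 1 and 1 members were called between RPE and CH, 5 and 0 between RPE and PR, and 6 and 1 between CH and PR, as without it, and 0 and 0, 20 and 5, and 20 and 4 wider genes. Median centring moved the median of all probes in CH minus PR to -0.11, and the series table to -0.12, from -0.06. Probes called higher and lower in RPE against PR numbered 4041 and 2057, and 4334 and 3615 with processed signals.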
